A study of Rattus norvegicus with 39 samples.

Results

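The genes described here are 49 transcripts that were strongly enriched in ribosome-bound mRNA of D1-Cre over D2-Cre rats after saline, followed into ketamine-treated rats and across the estrous cycle. They were chosen from the saline libraries by 3 criteria. The mean level in the 10 D1 saline libraries was at least 5 CPM (a gene's counts scaled to the total of its library), the mean log2(CPM + 0.5) was at least 0.8 higher in D1 than in D2, and each D1 saline library lay above each D2 saline library. Of 23978 genes, 10313 reached 5 CPM, 0.999% of these had the D1 and D2 saline libraries apart in that way, and 51 met all criteria. Sst, which encodes the peptide somatostatin, and 3 genes listed by identifier were left out by name, which removed 2 of the 51, Sst not among them.

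The libraries came from adult female Long Evans rats heterozygous for LE-Tg(Drd1a-iCre)3Ottc (D1-Cre) or LE-Tg(Drd2-iCre)1Ottc (D2-Cre). All rats, controls included, carried a viral RiboTag vector in the nucleus accumbens (NAc). In this vector an HA-tagged ribosomal protein, Rpl22, is made only in Cre-expressing cells, so that pulling down the tag recovers the mRNA those cells were translating. Rats received 6 intraperitoneal injections of saline or of ketamine at 10 mg/kg, every 4 or 5 days, always in proestrus or always in diestrus, and were killed 4 days after the last session, 30 min after return to the test context. The paper sequenced only those ketamine-treated females whose locomotor activity rose by more than a set percentage over treatment. No such selection is stated for the saline rats. The 39 libraries, 1 per rat, fall into 8 groups of 5, except that D2-Cre proestrus ketamine has 4. Which cells are tagged depends on the promoter in each transgene and on where the virus spread.

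The NAc is built mainly of medium spiny neurons (MSNs). D1-MSNs carry the dopamine receptor D1, which stimulates cAMP production, and D2-MSNs carry the receptor D2, which inhibits it. Ketamine blocks the NMDA type of glutamate receptor. Proestrus and diestrus are the stages of the rat cycle with high and low ovarian estradiol. A transcript enriched in a Cre line's IP can come from D1-MSNs, or from any other cell in which that line's Cre is active or whose RNA is carried through the IP.

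Total counts ranged from 2396517 (library 39, D2 diestrus saline) to 43224256 (library 22, D2 proestrus ketamine), and the other 37 libraries had at least 16118050. Adora2a, an adenosine receptor gene that marks D2-MSNs, was the only one of 10 listed D2-MSN markers that could be paired with an identifier, and it lay at 141 to 220 CPM in the D1 libraries. It lay at 774 to 1048 CPM in 18 of the 19 D2 libraries, and at 475 CPM in library 32, D2 diestrus ketamine. Among 11 listed D1-MSN markers Rgs4 alone could be paired, and the groups overlapped for it. Whether the D1 libraries hold the classical D1-MSN markers could therefore not be checked by name here. The paper lists Drd1, Pdyn, Tac1 and Chrm4 among the genes that were higher in its D1-Cre IP samples. The 2 paired astrocyte markers of 7 listed were higher in some of the D2 libraries. Summed over Gfap and Gja1, the level was 28.3 to 50.3 CPM in D1 and 39.5 to 115 CPM in D2 libraries. In the ketamine libraries Gja1 was called by edgeR with a D2 bias (log2 fold change -0.39, adjusted p = 0.0202). The vascular list, with Flt1, Col1a1 and Igfbp7 paired of 8, summed to 21.0 to 31.8 CPM in D1 and 17.9 to 39.5 CPM in D2 libraries, and its genes went both ways in ketamine, Flt1 with -0.69 (adjusted p = 0.0044) and Igfbp7 with 0.52 (adjusted p = 1.43e-05). The pan-MSN genes Gad1 and Rgs9 summed to 1328 to 1554 CPM in D1 and 1315 to 1514 CPM in D2 libraries. Sema5b, of a list for patch MSNs, lay at 7.40 to 22.4 CPM. It was called with a D1 bias over all ketamine libraries (log2 fold change 0.35, adjusted p = 0.0133 by edgeR) and in neither stage alone. Aif1, of the microglial list, lay at up to 2.20 CPM, and no gene of the glutamatergic and ependymal lists could be paired. The part of these cell types in the members' values was not tested. With bulk libraries, fewer cells of a type and less RNA per cell cannot be told apart.

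Only Nos1 and Chodl among the 49 members could be paired with a gene symbol. The study's tables were read only in part, and the listed marker genes that could be paired all have low Ensembl identifiers. Which members carry a name thus says nothing about what the other 47 are. Nos1 encodes neuronal nitric oxide synthase, which makes the gas messenger nitric oxide. Chodl encodes chondrolectin, a membrane protein. Both genes are known markers of a class of striatal interneurons that also makes somatostatin, and Nos1, Chodl and Sst were the 3 of 16 listed interneuron markers that could be paired. Summed over these 3 genes the level was 257 to 831 CPM in D1 and 76.8 to 291 CPM in D2 libraries, a description, since the rule chose Nos1 and Chodl for such a difference. Sst was higher in D1 than in D2 ketamine libraries (log2 fold change 1.63, adjusted p = 3.68e-06 by edgeR). The part of interneurons in the other members' values was not tested. The other 47 members are given by counts and ranges, and single ones by Ensembl identifier.

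The promoters of the 2 named members are shown because cAMP, the messenger on which the D1 and D2 receptors act in opposite directions, is known to act on transcription through the cAMP response element (CRE). They run from 250 bases before to 50 after the start in RefSeq, build GRCr8, 5′ to 3′ on the gene's strand. Capitals mark the CRE core TGACG, searched on both strands, so that CGTCA on the printed strand is also marked, and the full CRE TGACGTCA, which holds 2 overlapping cores. The Nos1 promoter is chr12:44371788-44372087 on the minus strand and the Chodl promoter is chr11:31140865-31141164 on the plus strand.
Nos1: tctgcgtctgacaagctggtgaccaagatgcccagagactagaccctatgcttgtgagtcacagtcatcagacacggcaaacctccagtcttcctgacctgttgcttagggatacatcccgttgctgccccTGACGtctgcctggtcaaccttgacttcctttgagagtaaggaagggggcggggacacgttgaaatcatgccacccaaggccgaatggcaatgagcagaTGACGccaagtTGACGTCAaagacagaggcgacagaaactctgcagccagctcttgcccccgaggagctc
Chodl: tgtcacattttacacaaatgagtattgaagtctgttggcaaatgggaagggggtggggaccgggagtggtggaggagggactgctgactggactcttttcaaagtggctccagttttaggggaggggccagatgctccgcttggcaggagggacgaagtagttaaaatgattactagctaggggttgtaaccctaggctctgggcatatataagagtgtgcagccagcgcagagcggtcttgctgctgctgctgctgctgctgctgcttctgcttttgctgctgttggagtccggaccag
In the Nos1 promoter the core began 119 and 20 bases before the start, and a full CRE began 9 bases before it. The Chodl window held neither. Of 33469 RefSeq promoters of 300 bases, 1.83% held the full CRE and 21.2% the core. The matches are letters in a window, and nothing was measured at these sites.

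In saline, by which the members were chosen, the D1 minus D2 difference ran from 0.83 to 3.15 on the log2(CPM + 0.5) scale with a median of 1.27. It was 2 or more for 10 members, from 1 to 2 for 28 and under 1 for 11. Just inside the threshold lay members at 0.83, 0.85 and 0.86, and just outside it genes at 0.796, 0.783 and 0.763 that met the other criteria. Members at a low level rest on fewer counts, and the effect of depth was not tested. In D1 saline 22 members had a mean under 20 CPM, 17 lay from 20 to 100 CPM and 10 at 100 CPM or more. CPM is not per transcript length, so these levels do not rank the members. In the mirror set, with the same criteria in favour of D2, there were 31 genes.

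The 19 ketamine libraries took no part in the choice, and in them all 49 members were again higher on average in D1. The difference ranged from 0.36 to 3.17 with a median of 1.35, against a median of 0.00 over the 10313 genes at 5 CPM or more. It was at least 0.8 for 42 members. In 40 members each of the 10 D1 ketamine libraries lay above each of the 9 D2 ketamine libraries, where 1.13% of the 10313 genes did so. Within proestrus this held for 44 members and within diestrus for 41, against 3.59% and 2.25% of genes. The ketamine difference was smaller than the saline one in 26 members and larger in the other 23. Since the saline values passed a threshold, the choice itself favours a smaller difference in new libraries.

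**Figure D1:**
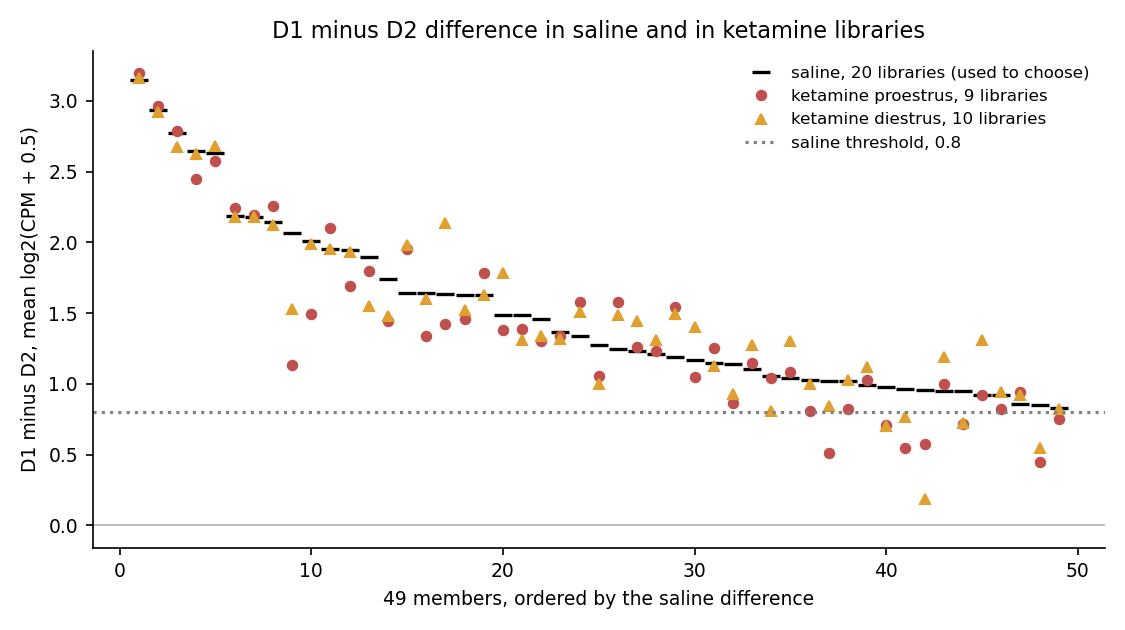
D1 minus D2 difference of the mean log2(CPM + 0.5) for each of the 49 members, ordered by the saline difference (black dashes, which chose the members). Red circles are the 9 proestrus ketamine libraries and yellow triangles the 10 diestrus ones. All points lie above 0, and the lowest, 0.19, is the diestrus ketamine value of ENSRNOG00000051960.

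Over 13850 genes tested with the quasi-likelihood method of edgeR and adjusted by Benjamini-Hochberg, 48 of 49 members were called with a D1 bias at an adjusted p under 0.1 in the ketamine libraries, where 9.83% of all genes tested were. The median log2 fold change of the members was 1.46, and that of all genes was 0.00. In proestrus ketamine libraries 47 members were called (3.21% of genes), and in diestrus ketamine libraries 49 (6.6% of genes). DESeq2 with the same surrogate variables called 49, 48 and 49. The 10 members with a saline difference of 2 or more had ketamine differences of 1.36 to 3.17 with a median of 2.37, and 9 of them did not overlap between D1 and D2. The 28 with 1 to 2 had 0.69 to 2.02, and 25 did not overlap. The 11 with under 1 had 0.36 to 1.13, and 6 did not overlap.

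The steepest of all was ENSRNOG00000067502, first in the saline order. In D1 ketamine libraries it lay between 335 and 360 CPM in proestrus and between 300 and 432 CPM in diestrus. In D2 ketamine libraries it lay between 25.3 and 57.5 CPM in proestrus and between 34.5 and 52.5 CPM in diestrus. Each D1 library was thus more than 5 times as high as the highest D2 library. Its difference was 3.17 in ketamine and 3.15 in saline.

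ENSRNOG00000054508 had the lowest adjusted p between D1 and D2 in the ketamine libraries. Its D1 values were 180, 146, 163, 168 and 154 CPM in proestrus and 187, 194, 136, 165 and 150 CPM in diestrus. Its D2 values were 40.8, 38.5, 29.2 and 27.3 CPM in proestrus and 35.5, 38.6, 41.6, 30.4 and 42.5 CPM in diestrus. The groups were far apart in both stages. The log2 fold change by edgeR was 2.30 with a standard error of 0.048 (adjusted p = 2.01e-20), 2.27 in proestrus and 2.16 in diestrus. In proestrus alone ENSRNOG00000012311 had the lowest adjusted p (log2 fold change 3.04, standard error 0.069, adjusted p = 1.90e-11 by edgeR).

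ENSRNOG00000018279, next by adjusted p, was the steadiest member over D1 libraries. Its D1 ketamine values were 185, 195, 193, 183 and 208 CPM in proestrus and 193, 193, 199, 176 and 200 CPM in diestrus. In D2 ketamine libraries it read 67.5, 60.3, 73.2 and 79.5 CPM in proestrus and 70.5, 66.1, 59.5, 84.0 and 56.8 CPM in diestrus. No library of one cell type came near the other. In edgeR its log2 fold change was 1.47 with a standard error of 0.037 (adjusted p = 7.62e-19). The SD of its log2 values within the D1 groups was 0.073, against a median of 0.22 over the members.

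Nos1 was the most variable member in D1 libraries, with an SD of 0.53 within groups. In D1 ketamine libraries it read 26.8, 22.2, 36.3, 39.4 and 39.6 CPM in proestrus and 28.7, 24.9, 22.8, 40.5 and 37.9 CPM in diestrus. Its D2 ketamine values were 7.86, 11.7, 17.1 and 11.7 CPM in proestrus and 4.72, 5.23, 8.04, 8.15 and 6.99 CPM in diestrus. The highest D2 library, at 17.1 CPM, stayed below the lowest D1 library, at 22.2 CPM. The log2 fold change by edgeR was 1.82 with a standard error of 0.21 (adjusted p = 2.01e-05) over all ketamine libraries. It was 1.40 (standard error 0.28, adjusted p = 0.0469) in proestrus and 2.23 (standard error 0.22, adjusted p = 4.70e-04) in diestrus. The proestrus call held in 7 of 9 fits with 1 library left out. It was lost without library 6 (1.18, adjusted p = 0.129) and without library 18 (1.33, adjusted p = 0.108). In saline the D1 values spread most in proestrus, at 14.8, 39.8, 69.0, 21.5 and 34.4 CPM.

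Chodl was lower and steadier. Its D1 ketamine values were 9.56, 12.7, 12.5, 9.66 and 9.65 CPM in proestrus and 13.9, 8.78, 8.54, 11.2 and 11.7 CPM in diestrus. In D2 ketamine libraries it read 4.51, 3.77, 5.34 and 5.72 CPM in proestrus and 4.55, 3.16, 3.28, 5.00 and 4.45 CPM in diestrus. The lowest D1 library, at 8.54 CPM, was above the highest D2 library, at 5.72 CPM. The log2 fold change by edgeR was 1.28 with a standard error of 0.12 (adjusted p = 2.41e-08), 1.22 in proestrus and 1.43 in diestrus, and it was called in each fit with 1 library left out.

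**Figure D2:**
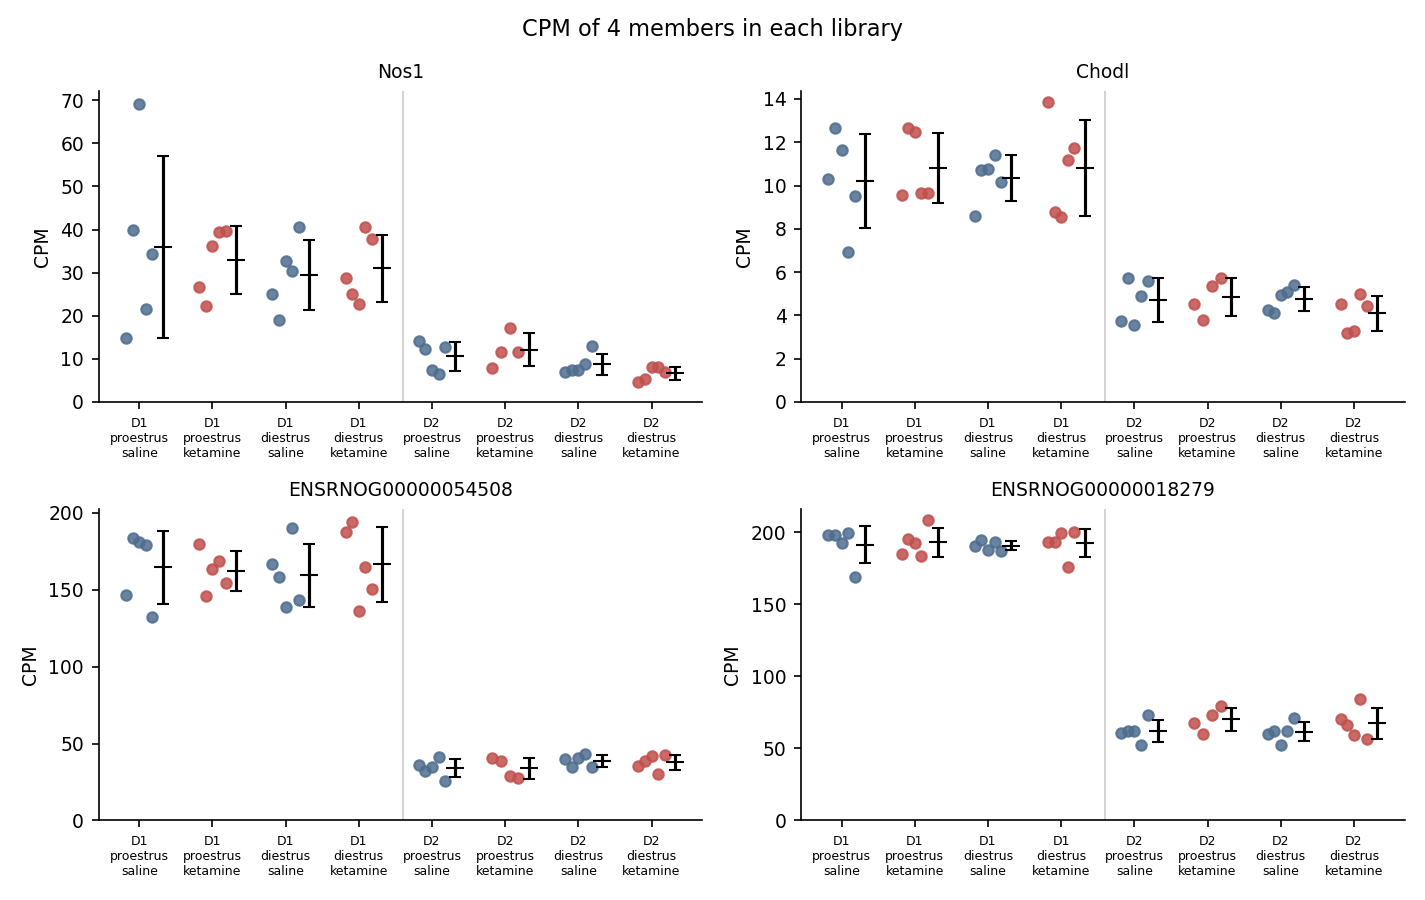
CPM of Nos1, Chodl, ENSRNOG00000054508 and ENSRNOG00000018279 in each library by group, saline in blue and ketamine in red, with the mean and SD of 4 or 5 libraries in black. Within each treatment the D1 libraries lie above the D2 libraries in all 4 panels; for Nos1 the D1 spread runs from 14.8 to 69.0 CPM, and its lowest D1 saline library is below its highest D2 ketamine library, at 17.1 CPM.

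Nos1 and Chodl were set against Sst, which was left out by name and whose saline libraries overlapped between D1 and D2, across the 20 D1 libraries in log2(CPM + 0.5). In all 6 relations were computed, 3 in each cell type. Sst varied with Nos1 (Pearson r = 0.66, Spearman rho = 0.65) and with Chodl (r = 0.68, rho = 0.69). The permutation p for r was 0.00138 and 7.60e-04, each 0.00414 after Benjamini-Hochberg adjustment, and for rho the adjusted p was 0.0072 and 0.0024. Without the 2 D1 libraries farthest from the median of the first gene, r was 0.58 and 0.61. Within saline it was 0.76 and 0.81 and within ketamine 0.55 and 0.54, with 10 libraries each. With group means removed, r was 0.66 with Nos1 and 0.69 with Chodl. The 95th percentile over pairs of members in D1, described next, was 0.68. The permutation p takes no account of shifts that libraries share across genes, so it does not mark a relation particular to Sst. Nos1 and Chodl themselves gave r = 0.33 and rho = 0.31 (adjusted permutation p = 0.187 and 0.224). In the 19 D2 libraries r was 0.43 for Nos1 with Chodl, 0.40 for Nos1 with Sst and 0.12 for Chodl with Sst (adjusted permutation p = 0.133, 0.137 and 0.640). The corresponding rho was 0.47, 0.48 and 0.02, with an adjusted permutation p of 0.0702, 0.0702 and 0.932. The difference between the cell types was not tested.

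Over all members the pairs ran in both directions. The median correlation over the 1176 pairs, after removing group means, was 0.004 in D1 and 0.09 in D2 libraries, and the 5th and 95th percentiles in D1 were -0.61 and 0.68. These are descriptions, since all pairs share the same libraries and their depth. Single libraries shifted many members together, as library 40 was above the mean of the other D2 ketamine libraries in 11 of 49 members and libraries 30 and 38 in 37 and 36. Within groups the SD of log2 values had a median of 0.22 in D1 and 0.33 in D2 libraries. For members under 20 CPM in D1 saline and for the others it was 0.24 and 0.21 in D1, and 0.30 and 0.38 in D2.

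ENSRNOG00000051960 was the 1 member not called between D1 and D2 in ketamine. Its D1 ketamine values were 18.1, 25.9, 25.2, 25.4 and 23.9 CPM in proestrus and 29.0, 20.5, 28.0, 22.9 and 19.3 CPM in diestrus, much as in saline. Its D2 values were 7.95, 11.5, 8.89, 9.32 and 13.3 CPM in proestrus saline and 9.62, 16.7, 21.4 and 17.2 CPM in proestrus ketamine. In diestrus they were 13.8, 13.6, 16.4, 11.7 and 15.0 CPM in saline and 25.5, 23.9, 17.0, 36.1 and 10.0 CPM in ketamine. With ketamine the D2 libraries spread widely and reached into the D1 range in both stages. The log2 fold change of D1 over D2 was 0.28 (95% interval 0.01 to 0.55, adjusted p = 0.175 by edgeR) in all ketamine libraries, 0.54 (adjusted p = 0.134) in proestrus and 0.24 (adjusted p = 0.094, a call) in diestrus. The lack of a call over all ketamine libraries depended on the fit. There ENSRNOG00000051960 was called by DESeq2 with the same surrogate variables (adjusted p = 0.081), and by edgeR without library 6, 22 or 32 (0.0362, 0.0869 or 0.0816). In proestrus it was likewise called by DESeq2 with the surrogate variables (adjusted p = 0.00897) and without them (0.0883), in edgeR with blocks of 8 library numbers (0.0870), and in edgeR without library 2 (0.0841) or library 30 (0.0452). In proestrus alone ENSRNOG00000028624, near 5 CPM, was also not called (log2 fold change 0.41, adjusted p = 0.304).

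ENSRNOG00000004899 had the greatest loss of separation among members with a saline difference of 2 or more. In D1 ketamine libraries it lay between 4.89 and 12.6 CPM in proestrus and between 6.27 and 13.5 CPM in diestrus. In D2 ketamine libraries it lay between 2.66 and 5.46 CPM in proestrus and between 1.48 and 6.03 CPM in diestrus. The stages overlapped between D1 and D2 in proestrus and not in diestrus, where 6.27 CPM lay just above 6.03 CPM, and the lowest D1 library of all was below 2 D2 libraries. Its D1 minus D2 difference was 1.36 in ketamine and 2.07 in saline, and it was still called in ketamine (log2 fold change 1.48, standard error 0.15, adjusted p = 3.05e-07 by edgeR). The change between treatments was not tested on its own.

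Library 32, the D2 library with the low Adora2a level, touched this result directly. It lay at or above the lowest D1 ketamine library in all 9 members whose ketamine groups overlapped, and was the highest D2 ketamine library in 8 of them. Library 30 did so in 4 members, library 38 in 2, and the other 6 D2 ketamine libraries in at most 1. Over the 49 members its mean log2 level, 3.61, was the highest of the D2 libraries, and its astrocyte sum, 84.7 CPM, was the highest among the D2 ketamine libraries. Against the mean of the other D2 ketamine libraries 33 of 49 members were higher in it, while 37 were in library 30 and 36 in library 38, each set against the mean of the rest. ENSRNOG00000067502 was at 38.1 CPM in library 32, within the range of the others. Leaving this library out, which was decided with its values known, 44 members did not overlap (1.32% of genes), and the median difference was 1.34 in place of 1.35.

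**Figure D3:**
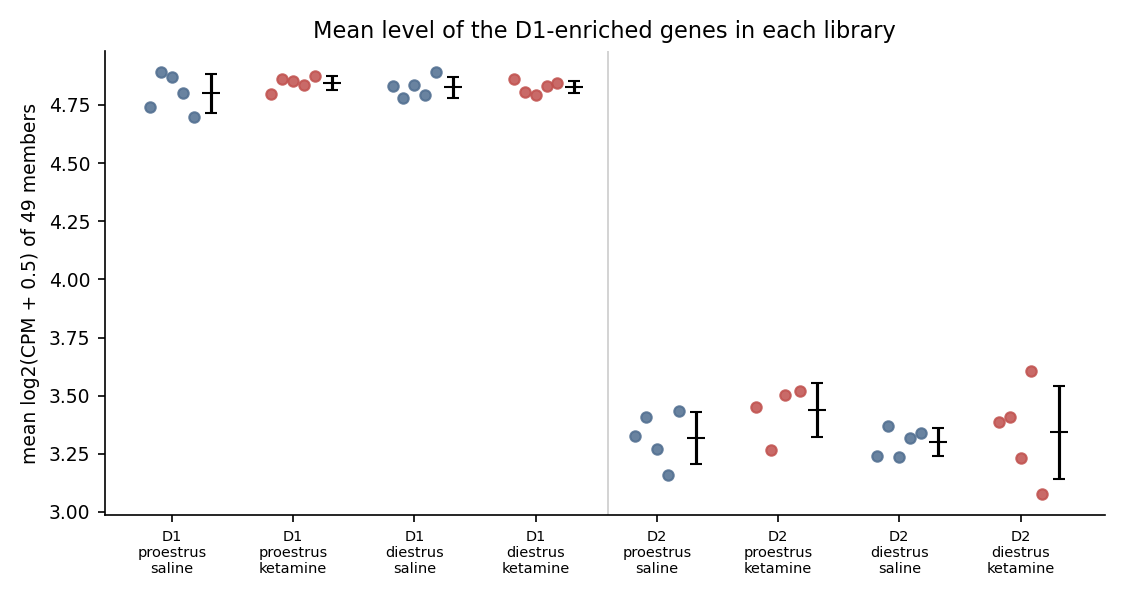
Mean log2(CPM + 0.5) of the 49 members in each of the 39 libraries by group, saline in blue and ketamine in red, with the group mean and SD in black. D1 libraries lie between 4.70 and 4.89 and D2 libraries between 3.08 and 3.61, with library 32 as the highest D2 point.

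The mean log2 level of the 49 members in D1 libraries was 4.80 ± 0.084 (SD, n = 5) in proestrus saline, 4.84 ± 0.031 (SD, n = 5) in proestrus ketamine, 4.83 ± 0.044 (SD, n = 5) in diestrus saline and 4.83 ± 0.027 (SD, n = 5) in diestrus ketamine. All group means of D1 lay within 1 SD of the proestrus saline mean by the proestrus saline SD, 0.084. That SD was the largest of the D1 groups, and the proestrus ketamine SD was 0.031. In D2 libraries the mean log2 level was 3.32 ± 0.11 (SD, n = 5), 3.44 ± 0.12 (SD, n = 4), 3.30 ± 0.060 (SD, n = 5) and 3.34 ± 0.20 (SD, n = 5) in the same order. These are levels on a log scale, so only differences between them carry meaning.

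Ketamine did not change the level of any member to the point of a call. By edgeR, no member was called between ketamine and saline in D1 proestrus, D1 diestrus, D2 proestrus or D2 diestrus, and DESeq2 with or without the surrogate variables also called none. Over all genes edgeR called 0.00759%, 0.0227%, 0% and 0% of those tested (1, 3, 0 and 0 genes), and DESeq2 with the surrogate variables called 16, 10, 1 and 0 genes. An unadjusted p under 0.05 was found by edgeR for 1, 1, 1 and 3 of the 49 members, against 5.80%, 2.66%, 3.41% and 2.64% of all genes tested. The median log2 fold change over the members was 0.02, 0.00, 0.06 and -0.07. On plain log2(CPM + 0.5), without surrogate variables, the median difference was 0.03, 0.01, 0.11 and 0.05. In D2 proestrus 37 members lay above 0 on that scale and 12 below, where 50.2% of the 10313 genes lay above 0. The sign of the D2 diestrus median was not stable, as in edgeR it was 0.04 without surrogate variables and 0.04 with 1, and with the surrogate variables kept it was 0.02 without library 32 and 0.03 without library 40. Saline libraries chose the members for a high D1 and a low D2 level, which favours a lower D1 and a higher D2 level with ketamine. These comparisons share the saline libraries with that choice. They also set ketamine rats selected for a rise in activity against saline rats for which no such selection is stated.

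The 95% intervals say how large a change could have been missed. They lay within 0.5 on the log2 scale in both directions for 44 of 49 members in D1 proestrus and 43 in D1 diestrus. In D2 libraries this was so for 23 members in proestrus and 27 in diestrus. The widest bounds in D1 were -0.89 and 0.69.

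In D1 proestrus the lowest p belonged to ENSRNOG00000004641 (log2 fold change 0.25, 95% interval 0.00 to 0.50, adjusted p = 0.852 by edgeR). Next came ENSRNOG00000019584 (log2 fold change 0.18, adjusted p = 0.865). Its log2 fold change was 0.0763 without library 17. In D1 diestrus the lowest p belonged to ENSRNOG00000010777 (0.21, 95% interval 0.00 to 0.42), and ENSRNOG00000007600 and ENSRNOG00000064976 had -0.11 and -0.17, with an adjusted p of 1.00 for all 3. Nos1 had 0.08 in D1 proestrus (95% interval -0.17 to 0.32) and 0.02 in D1 diestrus (-0.55 to 0.60), and Chodl 0.06 (-0.30 to 0.41) and 0.05 (-0.22 to 0.32). Their signs turned under other settings. In D2 proestrus ENSRNOG00000051960 had 0.57 (95% interval 0.21 to 0.92, unadjusted p = 0.00474, adjusted p = 0.999 by edgeR), and ENSRNOG00000010777 and ENSRNOG00000014149 had -0.44 and -0.25. Without library 22 these were -0.21 and -0.14, and without library 5 the first was -0.26.

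ENSRNOG00000009037 had the lowest p in D2 diestrus. Its D2 diestrus values were 28.8, 28.7, 30.6, 27.4 and 30.0 CPM in saline and 21.5, 20.2, 26.4, 20.4 and 26.3 CPM in ketamine. All 5 ketamine libraries lay below all 5 saline libraries, where 0.233% of genes were lower without overlap. The log2 fold change was -0.27 (95% interval -0.45 to -0.09, unadjusted p = 0.00671, adjusted p = 1.00 by edgeR).

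Stage of the cycle was compared in each cell type and treatment. No member was called between proestrus and diestrus by edgeR in D1 or D2 libraries, in saline or in ketamine, and 0% of all genes tested were called in each of these comparisons. DESeq2 with or without surrogate variables called no member, and with them it called 2 genes in all in D1 saline, 2 in D1 ketamine, 0 in D2 saline and 4 in D2 ketamine. The saline comparisons use the libraries that chose the members, and the demand that all D1 saline libraries lie above all D2 ones limits how far the stages can differ there. They are given as a description, and only the ketamine libraries are independent of the choice. An unadjusted p under 0.05 was found by edgeR for 1 member in D1 saline, 2 in D1 ketamine, 1 in D2 saline and 6 in D2 ketamine, against 3.96%, 3.90%, 4.09% and 3.45% of all genes tested. The medians of the log2 fold change, proestrus over diestrus, were 0.00, 0.02, 0.04 and 0.08. The 95% intervals lay within 0.5 in both directions for 43, 45, 24 and 23 members.

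In D2 ketamine libraries the fitted level of 34 of 49 members was higher in proestrus, with a median over all genes of 0.01. Nos1 had the largest log2 fold change, 0.81 (95% interval 0.22 to 1.39, unadjusted p = 0.0123, adjusted p = 0.998 by edgeR), from 7.86 to 17.1 CPM in proestrus and 4.72 to 8.15 CPM in diestrus. The stages overlapped through library 6 at 7.86 CPM in proestrus, and without it the log2 fold change was 1.23. With blocks of 8 library numbers in the model its adjusted p was 0.0748. ENSRNOG00000009037 had 0.32 (95% interval 0.14 to 0.49, unadjusted p = 0.00214) and was the 1 member whose proestrus libraries, 27.2 to 29.1 CPM, all lay above the diestrus ones, 20.2 to 26.4 CPM, where 0.204% of genes did. ENSRNOG00000004899 had 0.69 (95% interval 0.26 to 1.11, unadjusted p = 0.0041).

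**Figure D4:**
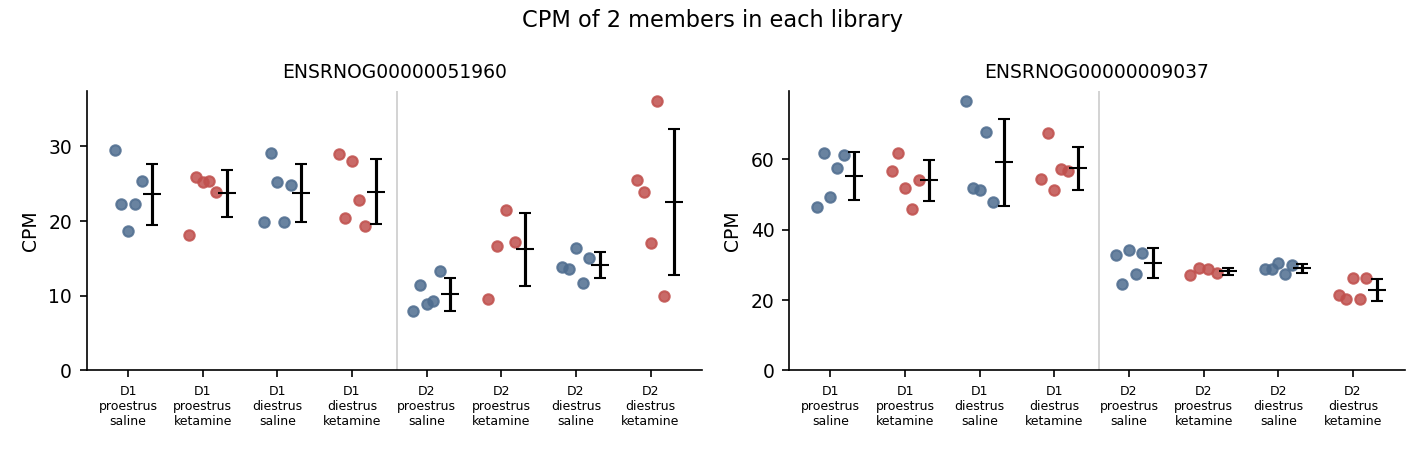
CPM of ENSRNOG00000051960 and ENSRNOG00000009037 in each library by group, saline in blue and ketamine in red, with the mean and SD of 4 or 5 libraries in black. For the first, D2 ketamine libraries reach from 9.62 to 36.1 CPM and into the D1 range; for the second, D2 diestrus ketamine libraries, at 20.2 to 26.4 CPM, lie below the D2 diestrus saline libraries.

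In the other stage comparisons the lowest p values were these. In D1 ketamine libraries ENSRNOG00000005634 had -0.15 (unadjusted p = 0.0292), and ENSRNOG00000004697 and ENSRNOG00000015321 had 0.11 and 0.21, the latter 0.13 without library 12. In D1 saline libraries ENSRNOG00000067502 had 0.17 (unadjusted p = 0.0223), and ENSRNOG00000064976 and ENSRNOG00000014795 had -0.19 and -0.30. Without library 25 these were -0.34 and -0.18, without library 1 the first was -0.0844, and without library 11 the second was -0.12. In D2 saline libraries ENSRNOG00000051960 had -0.47 (95% interval -0.79 to -0.15, unadjusted p = 0.00732), and Nos1 and ENSRNOG00000017556 had 0.37 and 0.18, the latter 0.11 without library 21. The adjusted p by edgeR was 0.987 or higher in each case.

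**Figure D5:**
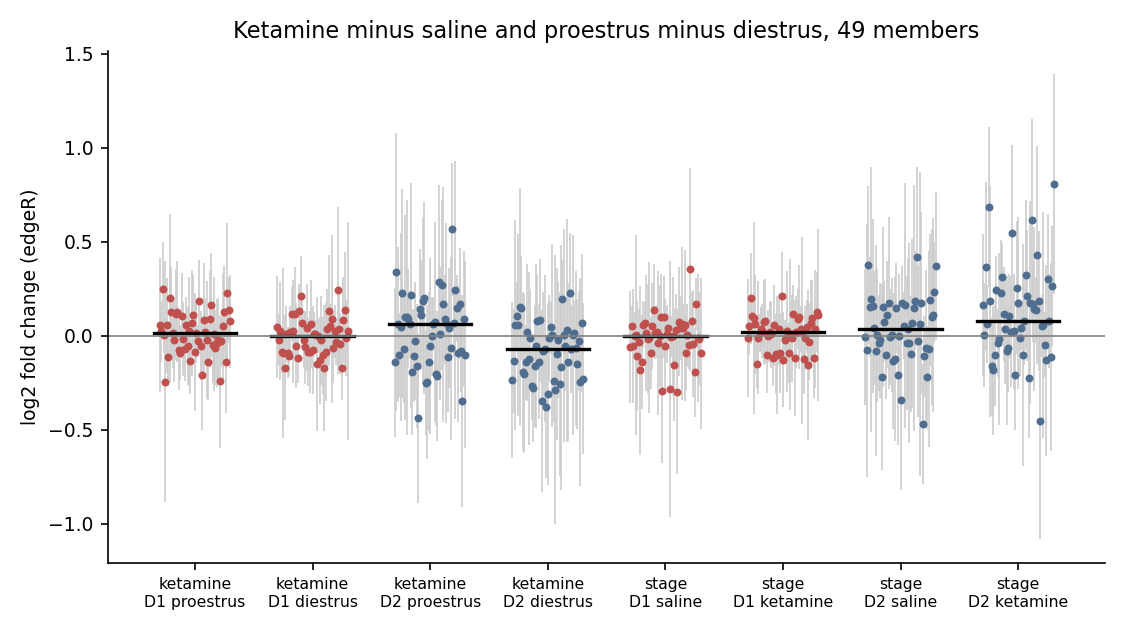
log2 fold change by edgeR of the 49 members for ketamine over saline in each cell type and stage, and for proestrus over diestrus in each cell type and treatment. Points are members (D1 red, D2 blue), grey lines their 95% intervals and black bars the medians, which lie between -0.07 and 0.08; no member was called, and the intervals are wider in D2.

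Interaction terms asked whether these effects depended on each other. Whether the D1 to D2 difference in ketamine libraries changed with stage was called for no member by edgeR or DESeq2. Over all genes edgeR called 0% and DESeq2 with the surrogate variables 2 genes. The edgeR fit gave an unadjusted p under 0.05 for 6 of 49 members, against 3.96% of all genes tested, with 31 members on the side of a smaller difference in proestrus and a median of -0.09. ENSRNOG00000009037 had -0.42 (95% interval -0.67 to -0.18, unadjusted p = 0.0015), Nos1 had -0.77 (95% interval -1.57 to 0.03, adjusted p = 0.997). ENSRNOG00000013887 had -0.61, which was -0.23 without library 6 and up to -0.83 in size with other libraries left out. ENSRNOG00000027309 had 0.45, which was 0.17, 0.26 and 0.25 without libraries 6, 22 and 40. Whether the effect of ketamine in D1 libraries changed with stage was also called for no member by either tool, with an unadjusted p under 0.05 for 0 members, against 4.91% of all genes tested, and a median of -0.01. Here edgeR called 0% of genes and DESeq2 with the surrogate variables 6 genes. ENSRNOG00000064976 and ENSRNOG00000007600 had the lowest p, with a log2 fold change of 0.28 and 0.20 (0.31 without library 9 for the second), and ENSRNOG00000067502 had -0.25 (adjusted p = 0.98).

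A list of 24 genes of Gs and cAMP signalling in striatal neurons served as background for these transcripts. Adcy5, Rgs9 and Rgs4 could be paired, and none of these 3 is a member. Rgs4, a brake on G protein signalling, was called with a D1 bias in the ketamine libraries (log2 fold change 0.36, adjusted p = 0.0213 by edgeR), and by stage in diestrus (0.37, adjusted p = 0.0209) but not in proestrus (0.21, adjusted p = 0.463). Adcy5, the main striatal adenylyl cyclase, had 0.11 (adjusted p = 0.138) and was called in diestrus alone (0.18, adjusted p = 0.0739), and Rgs9, another such brake, had -0.02 (adjusted p = 0.928). None of the 3 was called for ketamine over saline in either cell type or stage. Of 15 listed immediate early genes, which respond quickly to activity, Egr2 and Btg2 could be paired. Btg2 was called with a D1 bias (0.45, adjusted p = 0.0302), and among single stages it was called where the animals were in proestrus (0.74, adjusted p = 0.0667) and had -0.01 in the diestrus libraries (adjusted p = 0.978). Egr2 was not called (-0.25, adjusted p = 0.614), and neither was called for ketamine. The interaction of cell type with stage was called by edgeR for none of the genes tested.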

How the data were processed

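Polyribosome-bound mRNA from NAc punches was sequenced as 39 stranded poly(A) libraries. Per the labels and methods, the authors trimmed reads with fastp 0.23.4, quantified them with Salmon 1.10.2 on mRatBN7.2 and summed estimates per gene. The deposited values are expected counts, already whole numbers and not normalized, so effective transcript lengths were not used here. The authors excluded 1 D2 proestrus ketamine library. Input libraries were not analysed here.

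Members and gene lists were chosen with earlier results of these data known. CPM was taken on total counts, with 0.5 added before log2. Each comparison used edgeR's quasi-likelihood test with robust dispersions, filterByExpr by group (minimum count 10), TMM and 2 surrogate variables from svaseq, with Benjamini-Hochberg adjustment over all genes tested and calls at an adjusted p under 0.1, as in the study (edgeR 4.0.16 in R 4.3.3, with sva 3.50.0; the DESeq2 version was 1.42.0). The study's number of surrogate variables is not given in the sources used here. Scripts were tested on simulated counts. Correlations used 100000 permutations for r and 10000 for rho (scipy 1.17.1). Named were members with a symbol, those with the lowest p in each comparison, those that overlapped in ketamine, and values beside the threshold, with at most 2 identifiers each way per comparison. ENSRNOG00000004899 and the order of ENSRNOG00000067502 were singled out after their values were seen. A symbol was found for 1966 of 23978 identifiers in the name columns of the study's tables, which were read only in part. Of the cell type lists, 1 is not reported here. Promoters were matched by Entrez gene number for 2 members. Depth ranged from 2396517 to 43224256 counts with a median of 20494896, and at the lowest depth the member ENSRNOG00000028624 had 1 count. Alternatives covered surrogate variables, DESeq2, size factors, filters, a threshold of 0.05, a single model of 39 libraries, blocks of 8 library numbers, the member rule and each library left out.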

Additional observations from a re-analysis of the deposited data

Results flagged for a closer look

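In groups of 4 or 5 libraries, 72 sets of values were searched for a library far from the others (the mean member level, and 8 members), and chance flags about 1 in 20. In all, 6 stood out. Nos1 was at 12.9 CPM in library 39 (D2 diestrus saline, the library of lowest total), above 7.06 to 8.71 CPM in the others. ENSRNOG00000018279 was at 176 CPM in library 28 (D1 diestrus ketamine), below 193 to 200 CPM, and at 169 CPM in library 33 (D1 proestrus saline), below 193 to 199 CPM. ENSRNOG00000028624 was at 8.29 CPM in library 36 (D1 diestrus ketamine), above 4.21 to 5.04 CPM, and at 4.32 CPM in library 32 (D2 diestrus ketamine), above 2.16 to 2.71 CPM. ENSRNOG00000051960 was at 18.1 CPM in library 2 (D1 proestrus ketamine), below 23.9 to 25.9 CPM.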

How the results depend on the processing

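Each library number occurs in only 1 group, so no fit paired by replicate number was made. Runs of 8 consecutive numbers hold 1 library of each group, except 1 run without a D2 proestrus ketamine library, and were tried as blocks. The rule gave 49 members, 38 with a threshold of 1, 70 with 0.6, 57 with a mean of at least 1 CPM, 51 with TMM library sizes, 48 with a pseudocount of 1, and 49 to 54 with saline libraries left out in turn. Under all other settings of the model with the members kept, 47 to 49 members were called between D1 and D2 in ketamine, 41 to 48 in proestrus and 44 to 49 in diestrus, and with each library left out 48 to 49, 43 to 48 and 48 to 49. The 44 in diestrus came from edgeR without surrogate variables. For the 10 comparisons without a call, the settings gave 0 members, except that blocks of 8 library numbers gave 1, Nos1, in D2 ketamine between stages (log2 fold change 0.77, adjusted p = 0.0748). ENSRNOG00000051960 crossed to a call between D1 and D2 in 4 settings over all ketamine libraries and 5 in proestrus, named with its values. For Nos1 with ketamine in D1 proestrus the sign turned without surrogate variables (-0.17), in DESeq2 without them (-0.17), in a single model of 39 libraries (-0.18), and with libraries left out (-0.16 to 0.24). With libraries left out it ran from -0.12 to 0.21 for Nos1 in D1 diestrus, and from -0.0809 to 0.14 and -0.0633 to 0.14 for Chodl in D1 proestrus and diestrus. ENSRNOG00000019985 with ketamine in D2 diestrus turned from -0.24 to 0.00799 without surrogate variables, 0.00073 with 1, and 0.0101 in DESeq2 without them. The cause was not tested. Members under 20 CPM, and all members in library 39, rest on fewer counts, and the effect of depth was not tested.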
